A study of Mus musculus with 12 samples.

Results

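The transforming growth factor β (TGF-β) pathway was followed through 9 genes of the RNA-seq count table, the ligand Tgfb1, the receptor subunits Tgfbr1 and Tgfbr2, the signal transducers Smad2, Smad3 and Smad4, the inhibitory Smad7 and the co-repressors Ski and Skil. Members were the rows whose symbol equals one of these names. Each name matched 1 row, and all 9 of the 13780 genes in the table passed the filter on low counts. The libraries were made from CD8+ T cells of wild-type C57BL/6J mice, 8 to 12 weeks old by the methods of the study, taken from the spleen by positive selection on magnetic beads. The naïve group (4 libraries) held cells frozen straight after isolation. The media group (4 libraries) held cells activated for 72 h with beads carrying antibodies to CD3 and CD28 in medium with 10 U/ml IL-2, and the lactate group (4 libraries) held cells activated in the same way with 40 mM sodium lactate in the medium from the start. Sodium lactate adds sodium as well as lactate, and the media group received no matching salt, so the effects of lactate and of sodium cannot be told apart. The comparison of lactate with media asks how exposure to lactate during activation changes these transcripts, and the comparisons with naïve cells ask how activation does.

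TGF-β is a secreted cytokine that is held in a latent complex and has to be released before it can act. The active dimer binds TGFBR2, which phosphorylates TGFBR1, and TGFBR1 phosphorylates SMAD2 and SMAD3, which enter the nucleus with SMAD4 and change transcription. SMAD7 blocks the receptor complex, SKI and SKIL (also called SnoN) hold SMAD complexes in a repressed state, and all 3 are themselves target genes of the pathway. In CD8+ T cells TGF-β is known for restraining effector genes such as granzymes and interferon-γ and for inducing the integrin CD103, and it is one of the signals that keep naïve T cells quiescent. Transcript levels of these genes do not report how much ligand was active or how much SMAD protein was phosphorylated.

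Total counts were 16439750 to 18601223 per naïve library, 15842423 to 20922872 per media library and 14726904 to 21478137 per lactate library, and the lowest count of any member in any library was 228. The identity genes of CD8+ T cells (Cd3d, Cd3e, Cd3g, Cd8a, Cd8b1 and Trac, 6 of 6 tested) were present in every library, with summed levels of 1991 to 4036 CPM (counts scaled to library size) in naïve, 3095 to 3879 in media and 2303 to 2901 in lactate libraries. The naïve libraries also carried markers of other spleen cells, with sums of 412 to 1001 CPM over 5 B cell markers, 452 to 1456 CPM over 6 myeloid markers, 84.1 to 3369 CPM over 4 red cell markers and 4.58 to 11.0 CPM over 3 NK cell markers. In the activated libraries the same sums were at most 15.3, 3.18, 1.90 and 0.820 CPM, and Ncr1, Klra8 and Alas2 were at 0 in all media libraries. The library numbers in the labels fall into a low and a high run, and the high run holds naïve replicate 4, media replicate 4 and lactate replicates 3 and 4. The labels also carry tags that in part recur in both runs. Read as donors, separately for each run, these tags tie 3 donors to both a media and a lactate library.

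Naïve replicate 4, the naïve library of the high run, stood apart from the other naïve libraries. All 9 members were higher in it than the mean of the other 3 naïve libraries, by 4.94 times for Skil, 2.65 times for Ski, 1.84 times for Tgfbr1, 1.64 times for Smad7, 1.62 times for Tgfb1 and 1.17 to 1.44 times for the other 4. Its summed level of 10 immediate early genes (such as Fos and Jun, which respond within minutes to stimulation or handling) was 2244 CPM, the lowest of the naïve libraries, whose highest was 11877 CPM. Its summed CD8+ T cell identity level of 1991 CPM was also the lowest of the 4, as were its sums of myeloid markers (452 CPM, against up to 1456 CPM) and red cell markers (84.1 CPM, against up to 3369 CPM). The part of these differences in the results below was not tested, and each member's fold change against naïve cells is given with and without this library.

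**Figure D1:**
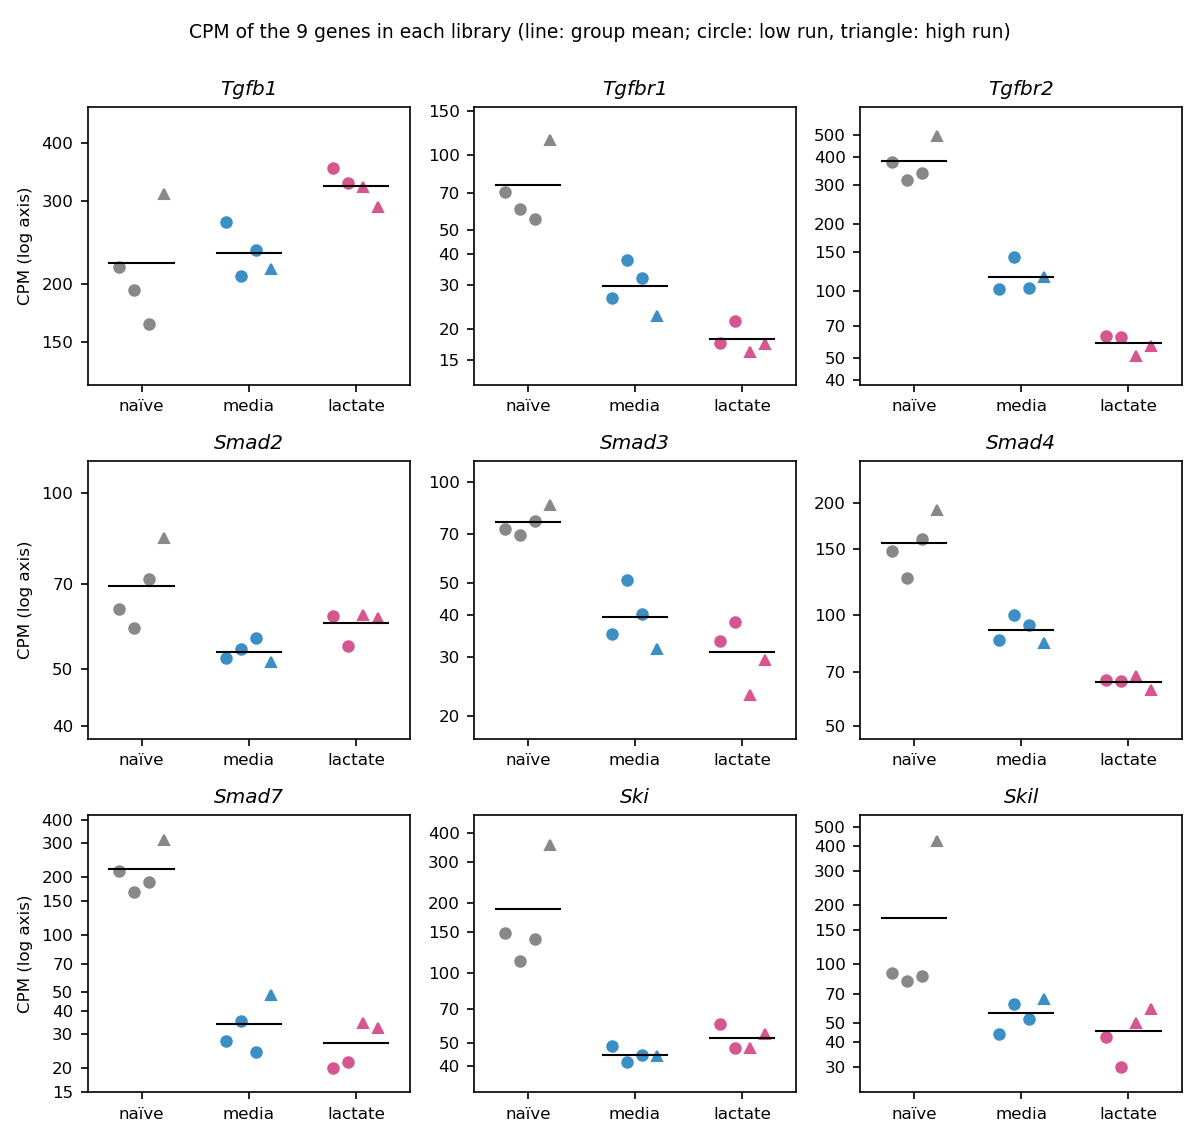
Level of each of the 9 genes in each of the 12 libraries, in CPM on a log axis, with the group mean as a line and the library run as the shape of the point. Tgfbr2 steps down from naïve (317 to 496 CPM) to media (102 to 142 CPM) to lactate (51.3 to 63.0 CPM) with no overlap, Tgfb1 is highest in lactate (292 to 353 CPM), and naïve replicate 4 lies far above the other naïve libraries for Ski and Skil.

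Levels of different genes can be compared per transcript length, on the TPM scale. Here the naïve cells held 4 members at similar high levels, Smad7 at 168 ± 55.1 TPM (SD, n = 4), Tgfbr2 at 161 ± 39.3 TPM, Tgfb1 at 151 ± 48.5 TPM and Smad4 at 144 ± 30.7 TPM, and their ranges overlapped. Ski (118 ± 74.0 TPM) and Skil (61.7 ± 63.6 TPM) varied most among the naïve libraries, and Smad3 (47.0 ± 5.99 TPM), Tgfbr1 (39.7 ± 15.7 TPM) and Smad2 (27.0 ± 5.21 TPM) had the lowest means. The place of Skil rests on naïve replicate 4, at 157 TPM, since in the other 3 naïve libraries it was at 27.7 to 31.8 TPM, below Smad3 (40.9 to 47.0 TPM). After activation the ligand led the order. Tgfb1 stood at 160 ± 23.0 TPM in media and 203 ± 23.7 TPM in lactate, with Smad4 next at 84.9 ± 8.60 TPM in media and 56.1 ± 3.53 TPM in lactate, and these ranges did not overlap within either group. Tgfbr1 was the lowest member in both, at 15.8 ± 3.83 TPM in media and 8.79 ± 1.37 TPM in lactate. By mean TPM in lactate libraries, Tgfb1 ranked at percentile 94.3 and Tgfbr1 at percentile 35.9 of all tested genes.

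In lactate against media, 2 of the 9 members passed an adjusted p of 0.01 in edgeR's quasi-likelihood test, Tgfbr2 and Smad4, both lower with lactate. Over all tested genes, 25.1% passed in this comparison (13.9% higher and 11.1% lower), so the members' share is close to the background. The libraries of the 2 conditions did not overlap for 4 members, Tgfb1 (higher) and Tgfbr1, Tgfbr2 and Smad4 (lower), and 44.7% of all tested genes did not overlap. The median log2 fold change over the 9 members was -0.32, against -0.0016 over all tested genes.

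Tgfb1, on chromosome 7 (ENSMUSG00000002603, chr7:25687002-25705077, plus strand, GRCm38), encodes the TGF-β1 ligand. It measured 353, 328, 323 and 292 CPM in lactate replicates 1 to 4 and 271, 208, 236 and 215 CPM in media replicates 1 to 4. Every lactate library lay above every media library, and the lowest lactate library was from the donor that also gave the second lowest media library. The log2 fold change was 0.48 (SE 0.17), with an edgeR adjusted p of 0.0382 that misses the threshold, and with the donor as a block it was 0.45 (SE 0.087) with an adjusted p of 0.00406. Over 25 alternative settings the adjusted p of Tgfb1 was at most 0.01 in 3, and it reached 0.105 without media replicate 2. Within the 3 donors with both libraries, lactate was higher by 0.38, 0.48 and 0.44 on the log2 scale. The exact two-sided permutation test over libraries gave p = 0.0286, the smallest that 4 against 4 allows, and the same holds for each of the 4 members without overlap.

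Tgfbr1 (ENSMUSG00000007613, chr4:47353222-47414931, plus strand) encodes the type I receptor kinase. Its levels were 17.6, 21.5, 16.1 and 17.4 CPM in the lactate libraries and 26.5, 37.9, 32.0 and 22.6 CPM in the media libraries. The groups did not overlap, although the highest lactate and the lowest media library lay close together. The log2 fold change of -0.71 (SE 0.23) had an edgeR adjusted p of 0.0252, and the blocked value of -0.50 (SE 0.11) had an adjusted p of 0.0062. It was lower with lactate in 3 of 3 donors, and DESeq2 gave an adjusted p of 0.007. The adjusted p of Tgfbr1 was at most 0.01 in only 5 of 25 alternative settings, DESeq2 and the donor block among them. It reached 0.0873 without media replicate 2.

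Tgfbr2 (ENSMUSG00000032440, chr9:116084293-116175360, minus strand) encodes the type II receptor, the subunit that binds the ligand first. Its levels were 63.0, 62.1, 51.3 and 56.5 CPM in the lactate libraries, against 102, 142, 103 and 115 CPM in the media libraries. All lactate libraries were below all media libraries, with a wide gap between the groups. It fell by 0.99 on the log2 scale (SE 0.15), which is 1.99-fold lower, with an edgeR adjusted p of 0.000377. With the donor as a block the log2 fold change was smaller, at -0.81 (SE 0.10, adjusted p 0.000601). The highest media and the lowest lactate library came from donors that, as the tags were read here, had only 1 of the 2 conditions. The differences within donors were -0.70, -0.73 and -1.02, and those within the library runs were -0.87 (low) and -1.09 (high). This was the largest change of any member in the comparison, and it passed the threshold in all 25 alternative settings.

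The promoters of the ligand and of both receptor genes are shown. Their media and lactate libraries did not overlap, with the ligand higher and both receptors lower in lactate. Smad4 did not overlap either, but no RefSeq window was found for it. The 250 bases before the annotated start are from RefSeq (GRCm38.p6), 5′ to 3′ on the strand of the gene, with capitals for CAGAC (a core of SMAD binding elements) and GGGCGG (a GC box), each searched on both strands. They cover chr7:25686752-25687001 for Tgfb1, chr4:47352972-47353221 for Tgfbr1 and chr9:116175364-116175613 for Tgfbr2.
Tgfb1: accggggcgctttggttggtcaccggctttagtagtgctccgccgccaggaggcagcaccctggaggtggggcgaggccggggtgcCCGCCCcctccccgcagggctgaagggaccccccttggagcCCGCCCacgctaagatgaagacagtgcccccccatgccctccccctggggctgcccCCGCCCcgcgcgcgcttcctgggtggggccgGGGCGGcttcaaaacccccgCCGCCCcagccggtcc
Tgfbr1: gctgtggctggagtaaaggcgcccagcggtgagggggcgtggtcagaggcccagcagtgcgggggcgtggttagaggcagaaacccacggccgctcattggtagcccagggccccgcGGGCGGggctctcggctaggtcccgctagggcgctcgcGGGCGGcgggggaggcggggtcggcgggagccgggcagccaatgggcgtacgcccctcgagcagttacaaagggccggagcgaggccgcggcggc
Tgfbr2: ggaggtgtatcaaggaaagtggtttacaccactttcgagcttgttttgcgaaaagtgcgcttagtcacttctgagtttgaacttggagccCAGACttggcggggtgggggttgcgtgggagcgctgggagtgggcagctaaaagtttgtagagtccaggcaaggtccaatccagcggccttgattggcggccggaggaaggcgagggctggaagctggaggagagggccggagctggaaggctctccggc
The Tgfb1 and Tgfbr1 windows are GC-rich (75.2% and 74.8% GC), with 5 and 2 GC boxes and no CAGAC, while the Tgfbr2 window (58.4% GC) has 1 CAGAC, 160 bases before the start, and no GC box. Over all 32851 promoter windows of this length the median GC content was 52.4%, and 42.2% held CAGAC and 32.7% held GGGCGG. None of the 3 windows held GTCTAGAC (0.167% of all windows), TGANTCA (6.75%) or TATAAA (12.4%), searched in the same way. RefSeq windows were found for 5 of the 9 members. Those of Smad3 and Ski held 2 and 5 GC boxes and no CAGAC, and a second start of Tgfbr1 had 1 CAGAC. A match is a description of these letters only.

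**Figure D2:**
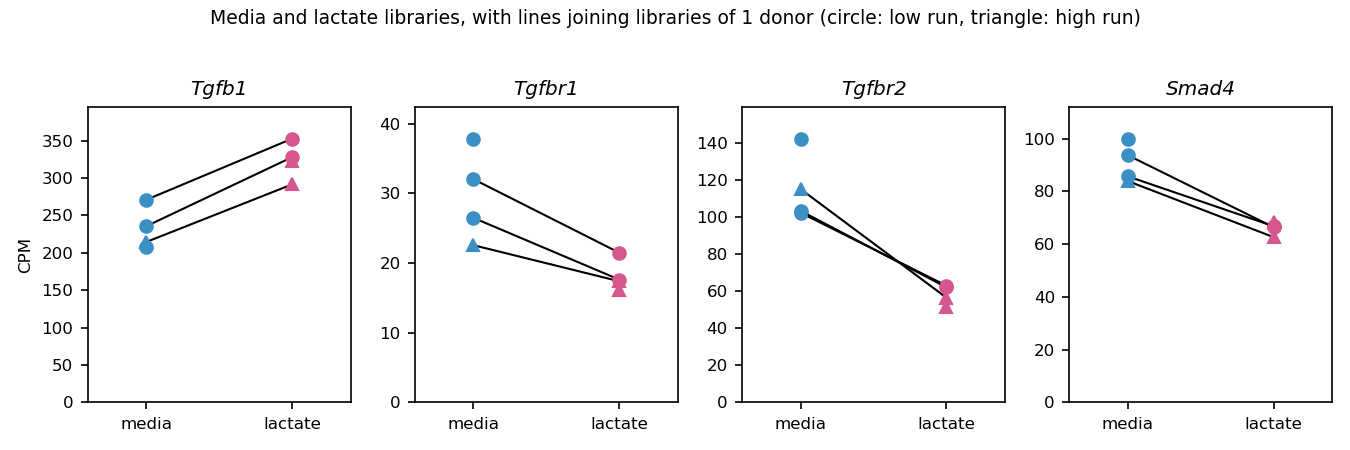
CPM of Tgfb1, Tgfbr1, Tgfbr2 and Smad4 in the 4 media and 4 lactate libraries, with lines joining the libraries of 1 donor (3 donors). All 3 lines rise for Tgfb1 and fall for the other 3 genes, and Tgfbr2 goes from 102 to 142 CPM in media to 51.3 to 63.0 CPM in lactate.

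Among the signal transducers, Smad4 was lower with lactate while Smad2 and Smad3 did not pass the test. Smad4 (ENSMUSG00000024515, chromosome 18), the partner that SMAD2 and SMAD3 share, measured 66.8, 66.4, 68.2 and 62.6 CPM in lactate and 85.7, 99.97, 93.7 and 83.9 CPM in media. The 4 lactate libraries lay close together and below all media libraries. The log2 fold change was -0.46 (SE 0.12), with an edgeR adjusted p of 0.00813, and the values within donors were -0.36, -0.50 and -0.42. This call sits at the threshold. It is lost when any library other than naïve replicate 2 or naïve replicate 4 is left out (adjusted p 0.0104 to 0.0283, log2 fold change -0.50 to -0.41), while with the donor block the adjusted p was 0.00695.

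Smad2 and Smad3 encode the SMADs that the receptor phosphorylates. Smad2 (ENSMUSG00000024563, chromosome 18) measured 61.6, 54.8, 61.9 and 61.2 CPM in lactate and 52.2, 54.2, 56.5 and 51.5 CPM in media. The groups overlapped through lactate replicate 2, and the log2 fold change of 0.16 (SE 0.11) had an edgeR adjusted p of 0.261 and a 95% interval of -0.073 to 0.39. Smad3 (ENSMUSG00000032402, chr9:63646767-63757994, minus strand) measured 33.4, 38.2, 23.1 and 29.4 CPM in lactate and 35.2, 51.0, 40.3 and 31.6 CPM in media. The groups overlapped, with a log2 fold change of -0.35 (SE 0.17), an edgeR adjusted p of 0.122 and a 95% interval of -0.72 to 0.019. Within donors the Smad3 difference was small, -0.08, -0.08 and -0.10. By the reading of donor tags used here, the highest media and the lowest lactate library came from donors with only 1 of the 2 conditions.

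The inhibitory arm showed no call in this comparison. Smad7 (ENSMUSG00000025880, chromosome 18) measured 20.1, 21.4, 34.3 and 32.4 CPM in lactate and 27.7, 35.2, 24.2 and 48.5 CPM in media. Its level followed the library run: in each condition the high run was above the mean of the low run, and within the runs lactate was lower by -0.46 (low) and -0.54 (high). Its log2 fold change was -0.32 (SE 0.26, edgeR adjusted p 0.349) without a term for the run and -0.50 (adjusted p 0.00604) with one, and with the donor block it was -0.40 (SE 0.11, adjusted p 0.0214).

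Ski (ENSMUSG00000029050, chr4:155154075-155222592, minus strand) measured 60.8, 47.7, 47.7 and 55.0 CPM in lactate and 48.5, 41.5, 44.8 and 44.0 CPM in media. The groups overlapped only through media replicate 1, with a log2 fold change of 0.24 (SE 0.29) and an edgeR adjusted p of 0.541. Skil (ENSMUSG00000027660, chr3:31095058-31122577, plus strand) measured 42.5, 29.9, 49.9 and 58.8 CPM in lactate and 43.7, 62.4, 52.3 and 66.5 CPM in media. These groups overlapped, with a log2 fold change of -0.31 (SE 0.48) and an edgeR adjusted p of 0.646. The model shares 1 estimate of the spread over all 3 groups, and without naïve replicate 4 the errors of Ski and Skil were 0.11 and 0.18, with edgeR adjusted p-values of 0.0824 and 0.184. Leaving that library out also brought Tgfb1 (adjusted p 0.00352) and Tgfbr1 (adjusted p 0.00308) past the threshold in lactate against media, with the same fold changes, for 4 members called. The same step raised the calls over all 13767 tested genes from 3451 to 4830, so the background rose as well.

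Against naïve cells, every member that was called in the activated groups was lower. In media against naïve, 7 of the 9 members were called lower and none higher, with a median log2 fold change of -1.34 against -0.029 over all tested genes. The background was 57.5% of tested genes called (28.5% higher and 29.0% lower). For 8 members all media libraries were below all naïve libraries, against 61.2% of genes without overlap in either direction. In lactate against naïve, which shares the naïve libraries, 7 members were called lower and none higher, with a median log2 fold change of -1.84 against 0.012 and a background of 65.0% called (33.0% higher and 32.0% lower). No lactate library overlapped a naïve library for 7 members, against 67.8% of all tested genes. Without naïve replicate 4, 6 members were called in media and 8 in lactate, where Tgfb1 was the 1 called higher. Of all tested genes, 8469 were then called in media and 9434 in lactate, against 7915 and 8944 with every library. Markers of B, myeloid, red and NK cells differed between naïve and activated libraries at the same time, as given above, and their part in these falls was not tested. In these bulk samples, fewer cells of a type and less RNA per cell cannot be told apart.

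**Figure D3:**
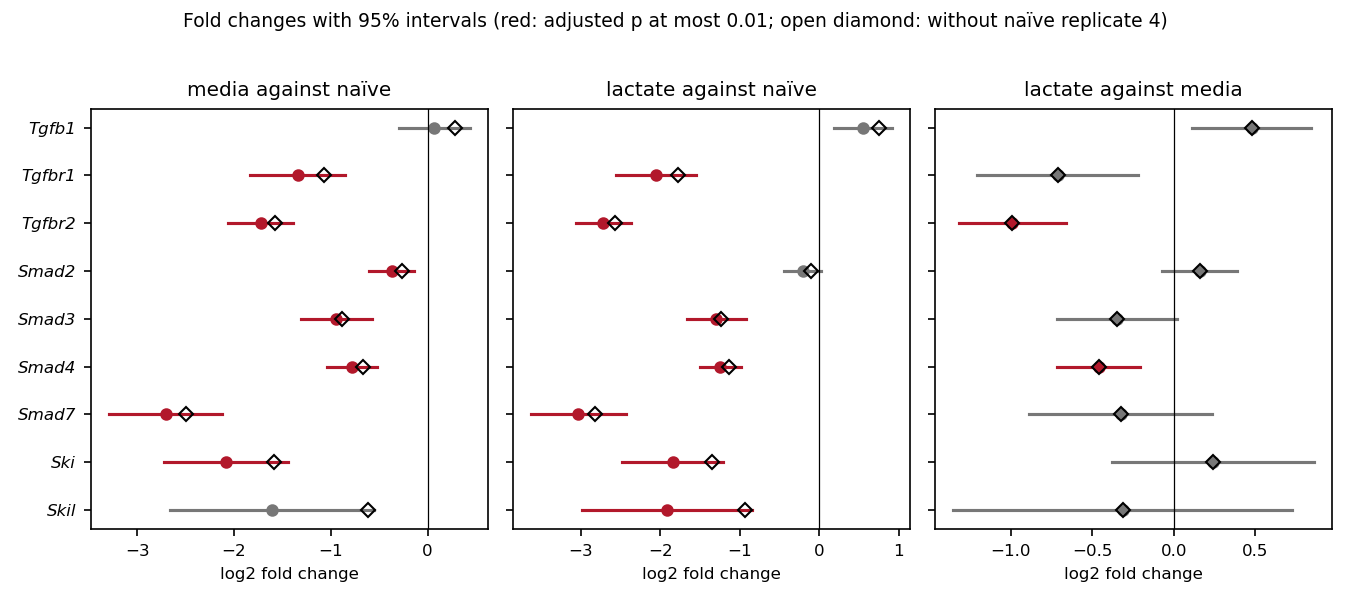
Log2 fold change of each member in the 3 comparisons with its 95% interval, in red where the edgeR adjusted p was at most 0.01, and with an open diamond for the value without naïve replicate 4. Smad7 shows the largest fall against naïve (-2.71 in media, -3.03 in lactate), Tgfbr2 the largest change in lactate against media (-0.99), and the diamonds of Ski and Skil lie closer to 0 than the filled points.

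Both receptors fell with activation. Tgfbr2 measured 379, 317, 340 and 496 CPM in the naïve libraries and was 3.31-fold lower in media (log2 fold change -1.73, SE 0.15, edgeR adjusted p 8.1e-07) and 6.58-fold lower in lactate (-2.72, SE 0.16, adjusted p 2.02e-08). Tgfbr1 measured 71.1, 60.7, 55.2 and 115 CPM in the naïve libraries and was 2.54-fold lower in media (-1.34, SE 0.23, adjusted p 0.000184) and 4.15-fold lower in lactate (-2.05, SE 0.23, adjusted p 4.81e-06). For both receptors the 3 groups were ordered naïve, media, lactate with no overlap between neighbours. Without naïve replicate 4 the values against naïve were -1.58 (media) and -2.57 (lactate) for Tgfbr2 and -1.07 and -1.78 for Tgfbr1, all called.

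The ligand did not follow the receptors. Tgfb1 measured 217, 193, 164 and 311 CPM in the naïve libraries, and the media libraries lay within that range. Its log2 fold change in media against naïve was 0.07 (SE 0.17, edgeR adjusted p 0.732), with a sign that depends on single libraries, and 0.28 (adjusted p 0.0528) without naïve replicate 4. In lactate against naïve it was 0.55 (SE 0.17), with an adjusted p of 0.0101 just above the threshold (0.00578 in limma voom). Without naïve replicate 4, which at 311 CPM lay among the lactate libraries, it was 0.76 (SE 0.12) with an adjusted p of 0.000102.

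Of the transducers, Smad4 measured 148, 125, 160 and 192 CPM in the naïve libraries and fell by 0.78 on the log2 scale in media (SE 0.12, edgeR adjusted p 7e-05) and by 1.24 in lactate (SE 0.12, adjusted p 1.08e-06). The 3 groups of Smad4 did not overlap, in the same order as for the receptors. Smad3 measured 72.5, 69.5, 76.7 and 85.6 CPM in the naïve libraries and fell by 0.94 in media (SE 0.17, adjusted p 3e-04) and by 1.29 in lactate (SE 0.17, adjusted p 1.9e-05). Without naïve replicate 4 the values in media and lactate were -0.67 and -1.13 for Smad4 and -0.88 and -1.23 for Smad3, all called.

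Smad2 showed the smallest differences from naïve cells among the transducers. It measured 63.3, 58.8, 71.3 and 83.8 CPM in the naïve libraries, with a log2 fold change of -0.37 in media (SE 0.11, edgeR adjusted p 0.00802) and -0.21 in lactate (SE 0.11, adjusted p 0.0909). The media call was lost without naïve replicate 4 (-0.27, adjusted p 0.013), where the lactate value was -0.11 with an adjusted p of 0.259, and it was also lost without naïve replicate 3, media replicate 1, 2 or 3 or lactate replicate 1 (adjusted p 0.011 to 0.0224). Without naïve replicate 2 the value in lactate against naïve was -0.35 with an adjusted p of 0.00968.

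Among the members, Smad7 fell furthest against naïve cells. It measured 214, 168, 190 and 313 CPM in the naïve libraries, and was 6.53-fold lower in media (-2.71, SE 0.27, edgeR adjusted p 2.24e-06) and 8.17-fold lower in lactate (-3.03, SE 0.27, adjusted p 6.99e-07). Its lowest naïve library was far above the highest activated library, 48.5 CPM in media replicate 4. Without naïve replicate 4 the values were -2.49 and -2.82.

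Ski measured 149, 113, 140 and 355 CPM in the naïve libraries and fell by 2.08 in media (SE 0.30, edgeR adjusted p 4.42e-05) and by 1.84 in lactate (SE 0.29, adjusted p 9.02e-05). Without naïve replicate 4 these falls were smaller, -1.58 and -1.34, and both remained past the threshold. Skil measured 90.0, 82.3, 86.7 and 427 CPM in the naïve libraries, so that 1 library holds most of its group mean. Its log2 fold change was -1.61 in media (SE 0.49, adjusted p 0.0104) and -1.92 in lactate (SE 0.49, adjusted p 0.00337), and without naïve replicate 4 it was -0.62 (SE 0.20, adjusted p 0.0134) and -0.93 (SE 0.20, adjusted p 0.000923). The media value passed without naïve replicate 1, 2 or 3 (adjusted p 0.00385 to 0.0052) and the lactate value missed without lactate replicate 1 or 2 (adjusted p 0.0111 and 0.0129). All 4 naïve libraries were nonetheless above all 8 activated libraries for both co-repressors.

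Ratios of 2 members within a library do not depend on the scaling between libraries, and show whether partners changed unequally. They were taken between counts per kilobase for 4 pairs and compared by exact permutation tests of 4 against 4 libraries, with Benjamini-Hochberg adjustment over 12 tests, and none passed an adjusted p of 0.05 because the smallest exact p of 0.0286 became 0.0686. The ratio of Smad3 to Smad2 was 1.82, 1.87, 1.71 and 1.62 in the naïve libraries, 1.07, 1.49, 1.13 and 0.973 in media and 0.859, 1.10, 0.590 and 0.760 in lactate. Smad3 was thus the more abundant of the 2 per length in every naïve library and the less abundant in 3 of 4 lactate libraries. Naïve libraries overlapped neither media (log2 difference -0.61) nor lactate (-1.12), at exact p = 0.0286 each, whereas lactate and media overlapped (-0.51, exact p = 0.0857).

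The ratio of Tgfbr2 to Tgfbr1 was 3.45 to 4.92 in naïve, 2.57 to 4.07 in media and 2.31 to 2.85 in lactate libraries, so the type II receptor transcript stayed the more abundant per length throughout. The log2 difference was -0.70 in lactate against naïve, without overlap (exact p = 0.0286, adjusted p 0.0686), -0.41 in media against naïve (exact p = 0.0571) and -0.29 in lactate against media (exact p = 0.0857). The ratio of Smad7 to Smad3 had a geometric mean of 3.47 in naïve libraries against 1.03 in media and 1.06 in lactate, with log2 differences from naïve of -1.75 and -1.71 (exact p = 0.0286 each). Relative to Smad3, Smad7 was lower in every activated library than in any naïve library. The ratio of Skil to Ski was 0.434 in naïve, 0.714 in media and 0.480 in lactate (geometric means), with overlapping groups in all 3 comparisons (exact p = 0.0857 to 0.714).

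**Figure D4:**
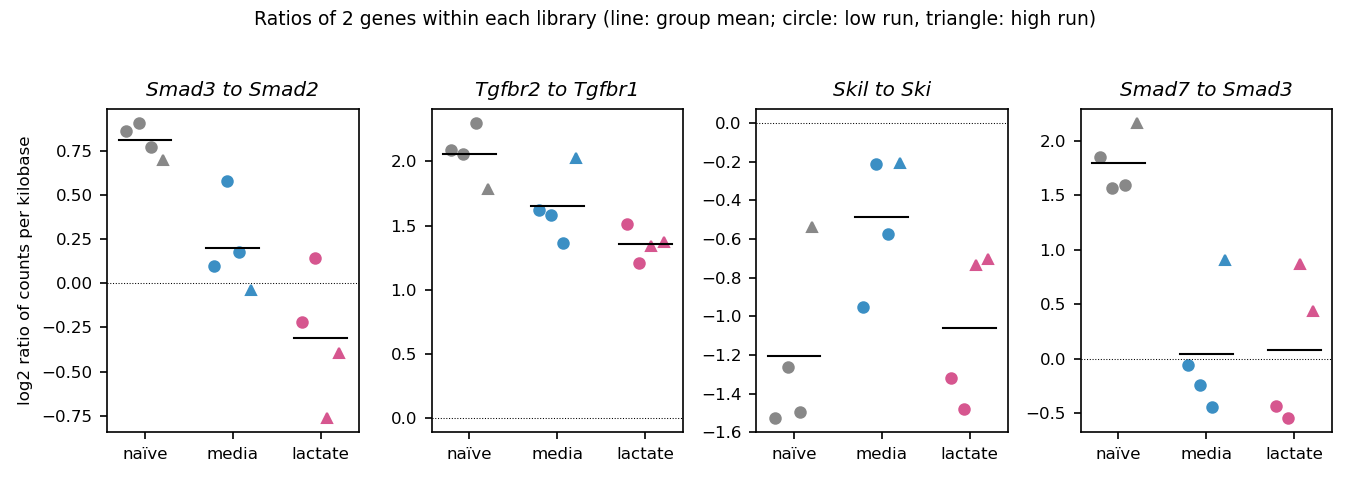
Log2 ratio of counts per kilobase of 2 members in each library, for 4 pairs, with group means as lines and the library run as the shape of the point. The geometric mean of Smad3 to Smad2 goes from 1.75 in naïve to 1.15 in media and 0.808 in lactate, and that of Smad7 to Smad3 from 3.47 in naïve to 1.03 and 1.06.

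The wider pathway was read from 8 lists, which overlap with the members and in part with each other. Among 11 tested receptors and co-receptors, lactate against media gave 2 higher and 4 lower, with a median log2 fold change of -0.40. Over all tested genes 13.9% were higher and 11.1% lower. The fall of Tgfbr2 was shared by some but not all of the family. Acvrl1, a type I receptor known as ALK1, was lower with lactate (8.05 to 34.6 CPM against 68.8 to 109 CPM, log2 fold change -2.33, edgeR adjusted p 0.0012). Acvr1b, the activin type I receptor, was also lower (13.7 to 20.4 against 20.9 to 35.6 CPM, -0.82, adjusted p 0.0023). The co-receptor endoglin (Eng) was higher, 23.1 to 47.9 against 12.5 to 24.1 CPM (1.10, adjusted p 0.00762), with overlapping groups. After activation in media, 3 of the 11 were higher than in naïve cells and 5 lower, against 28.5% and 29.0% of all tested genes. Bmpr1a (log2 fold change 2.30) and Acvrl1 (1.72) were higher, and Acvr2a was lower (-2.52, or -1.85 without naïve replicate 4). Unlike Tgfbr2, Acvrl1 thus rose with activation in media, and in lactate against naïve it was at -0.61 (edgeR adjusted p 0.20).

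Of 12 tested genes for ligands and their latency, 2 were called higher and 1 lower in the lactate libraries, at a median log2 fold change of 0.072. The shares over all tested genes were 13.9% higher and 11.1% lower. Furin, the convertase that cleaves the TGF-β precursor, measured 124 to 184 CPM in lactate and 53.6 to 89.8 CPM in media (log2 fold change 1.16, edgeR adjusted p 0.00589), the same direction as Tgfb1. Ltbp3, a latent TGF-β binding protein, measured 7.02 to 13.9 CPM in lactate and 18.1 to 22.5 CPM in media (-1.05, adjusted p 0.00303), and Gdf11 was higher (0.97, adjusted p 0.00181). With the donor block 6 genes of this list were called, 4 higher and 2 lower, Tgfb1 among them. From naïve to media cells, 5 of the 12 were higher and 4 lower (median 0.26), against 28.5% and 29.0% of all tested genes. Ltbp3 rose from a mean of 0.480 to 20.2 CPM (log2 fold change 5.37) and Ltbp4 from 0.357 to 7.07 CPM (4.29). Thbs1 fell from a mean of 17.1 to 0.141 CPM (-6.90).

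Of 6 tested SMAD genes, 2 were lower with lactate and none higher, against 11.1% and 13.9% of all tested genes. They were Smad4 and Smad1 (a SMAD of the BMP branch, -0.53, edgeR adjusted p 0.00412), and with the donor block 1 was called. In media against naïve all 6 were lower, against 29.0% of all tested genes, with Smad5 at -0.97 and Smad1 at -0.68 beside the 4 members. Among 12 co-repressors and co-activators, 1 was higher and 1 lower with lactate, against 13.9% and 11.1% of all tested genes. Zeb2, a repressor that binds SMADs, was higher (4.40 to 10.8 against 1.36 to 3.26 CPM, 1.92, adjusted p 0.00181), and Ncor1 was lower (214 to 326 against 400 to 478 CPM, -0.58, adjusted p 0.00374). Against naïve cells, where 29.0% of all tested genes were lower and 28.5% higher in media, 6 of these 12 were lower and 1 higher. Besides Ski these included Zeb2 (-4.11), Tgif1 (-1.91) and the acetyltransferase gene Crebbp (-1.55), and Tgif1, like Ski and Skil, was highest in naïve replicate 4, at 304 CPM against 70.6 to 89.9 CPM in the other naïve libraries (-1.11 without it).

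Genes that modify receptors and SMADs were called in both directions. Of 21 tested, 5 were higher and 3 lower with lactate (median 0.12), against 13.9% and 11.1% of all tested genes. Fkbp1a, whose product FKBP12 binds the type I receptor and holds it inactive, was at 447 to 498 CPM in lactate and 164 to 247 CPM in media (log2 fold change 1.16, edgeR adjusted p 5.97e-05). Strap, which binds the receptors and SMAD7, was higher (260 to 324 against 118 to 166 CPM, 1.02, adjusted p 0.000104), as was the ubiquitin ligase gene Wwp1 (0.92, adjusted p 0.000345), and the deubiquitinase gene Usp11 was lower (54.3 to 65.1 against 100.1 to 122 CPM, -0.87, adjusted p 0.000118). Against naïve cells, 10 of the 21 were lower and 2 higher in media, against 29.0% and 28.5% of all tested genes. Ldlrad4 was at -3.62 and Pmepa1 at -2.09, or -1.13 without naïve replicate 4. In that library Pmepa1 was at 101 CPM, against 13.6 to 26.9 CPM in the other naïve libraries. Ppp1r15a was at -3.67. Its level was 218 CPM in naïve replicate 4 and 861 to 1010 CPM in the other naïve libraries. In media it was 140 CPM in replicate 4 and 27.8 to 41.9 CPM in the others. Of 10 genes of the branch that runs through TAK1 and p38 rather than SMADs, 2 were higher with lactate, Map2k3 (1.04, adjusted p 0.00625) and Map3k7, which encodes TAK1 (0.59, adjusted p 0.00225), and in media against naïve 1 was higher and 2 lower (5 called without naïve replicate 4).

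Of 14 tested genes that TGF-β is known to induce, Smad7, Ski and Skil included, 1 was called in lactate against media, against 25.1% of all tested genes. The median was -0.021. With the donor block 3 of the 14 were higher and 2 lower. After activation in media 10 were lower and 2 higher than in naïve cells, with a median of -2.07. The shares of all tested genes in that comparison were 29.0% lower and 28.5% higher. Itgae, which encodes CD103, measured 83.9 to 244 CPM in naïve and 0.647 to 4.97 CPM in media libraries (-6.16), and P2rx7 was lower too (-5.17). Tgfbi had no count in any media or lactate library and 25.4 to 108 CPM in the naïve libraries, so it was at least 394-fold lower in media with a floor of 3 counts per library. The levels of Itgae, P2rx7 and Tgfbi were lowest among naïve libraries in replicate 4, where Ski and Skil were highest. The sum of myeloid markers was also lowest there, at 452 CPM, and at most 3.18 CPM in the activated libraries, and its part in the levels of these genes was not tested.

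Cytotoxic genes that TGF-β is known to repress gave 2 higher and none lower of 5 with lactate, against 13.9% higher and 11.1% lower over all tested genes. Interferon-γ (Ifng) measured 213, 43.0, 119 and 40.6 CPM in lactate and 1.53 to 14.5 CPM in media (log2 fold change 4.09, edgeR adjusted p 0.00239), and perforin (Prf1) measured 180 to 431 CPM in lactate and 28.5 to 56.7 CPM in media (2.99, adjusted p 8.01e-05). With the donor block 4 of the 5 were called, all higher. Gzmb (5.88) and Fasl (2.55) were higher and Gzma (-4.97) lower in media against naïve. These genes respond to many signals in activated T cells, and their link to the TGF-β genes was not tested.

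**Figure D5:**
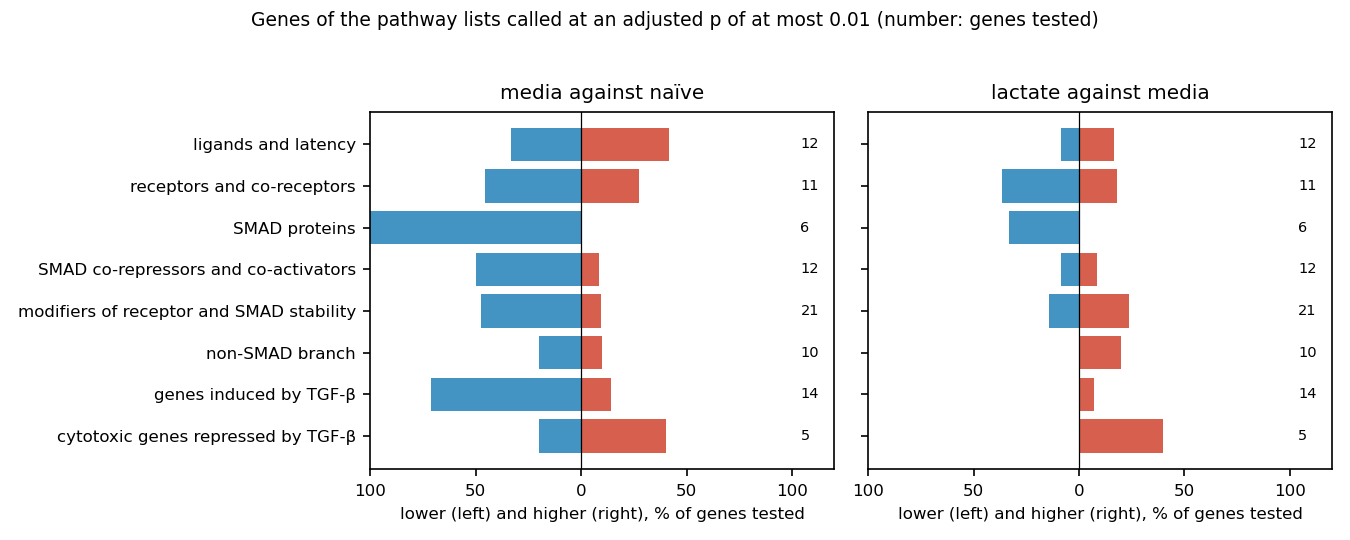
Share of the tested genes of each pathway list that were called higher (right) or lower (left) at an edgeR adjusted p of at most 0.01, in % of the genes tested, whose number stands at the right edge. In media against naïve all 6 SMAD genes and 10 of 14 TGF-β-induced genes were lower, against 29.0% of all tested genes. In lactate against media 2 of 11 receptors and co-receptors were higher and 4 lower, against 13.9% and 11.1% of all tested genes.

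By Pearson correlation of log2 CPM over the 12 libraries, the genes most like Tgfbr2 were Tnrc6c, Jak1 and Dyrk2 (r = 0.993 each), and those most like Smad4 were Chd6 (0.992), Numa1 (0.991) and Pan3 (0.990). The libraries share the step between naïve and activated cells, and of 10312 genes compared 1187 had r over 0.9 with Tgfbr2 and 913 with Smad4, so these values describe the common pattern of falling with activation.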

How the data were processed

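By the methods of the study and the submitters' processing notes, the authors converted base calls with bcl2fastq 2.20.0.422, aligned reads to GRCm38 with STAR 2.7.5b, removed PCR duplicates and counted exons with featureCounts, with a strand setting not given in the sources used here. The deposited table holds raw counts for 13780 genes and 12 libraries, with gene lengths. Groups came from the labels. Donors came from tags in the labels, read separately for the low and the high run of library numbers. The exons of all 9 members overlap no other gene in GENCODE M21.

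In R 4.3.3, genes with at least 1 CPM in 3 libraries were kept (13767) and scaled by TMM. An edgeR 4.0.16 quasi-likelihood model of 3 groups over 12 libraries was tested two-sided, p-values were adjusted by Benjamini-Hochberg across the 13767 genes, and genes were called at 0.01 or below. The standard error is |log2 fold change| over the root of F. Log2 CPM used a prior count of 2. Scripts were tested on simulated data. Limma 3.58.1 and DESeq2 1.42.0, other scalings and filters, blocks, a run term and leaving out each library were alternatives. Counting error is small beside the spread between libraries. By the study, the 4 libraries of each condition came from independent mice.

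Title numbers and donor tags disagree in part. Deviations from group means correlated by 0.374, 0.297, 0.0038 and 0.553 for media and lactate libraries with the same title number. For those of the same donor, the pairing used for the donor block, the values were 0.374, 0.211 and 0.553. Media replicate 4 and lactate replicate 3, both of the high run but with different donors and title numbers, correlated by 0.371. These values therefore do not decide between donor and library run.

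The members and lists were chosen with earlier results of these data known, and the immediate early genes were added after the counts were seen. From each list, non-members were named if called with a mean of at least 5 CPM in either group, at most the 4 largest changes in lactate against media and the 3 largest in media against naïve. The values of 1 gene that this rule would name are not reported here. Marker lists of CD4+ T cells (26.1 to 55.3 CPM in naïve, 44.6 to 55.8 in media and 76.0 to 89.4 in lactate libraries over 3 genes) and platelets (1 of 5 genes tested, at 1.70 to 7.09 CPM) were also summed. Of the CD4+ T cell sum, Zbtb7b made up a mean of 22.1, 47.4 and 81.4 CPM in naïve, media and lactate libraries, while Cd4 itself was at 22.1, 0.348 and 0.541 CPM and Foxp3 at 2.32, 0.140 and 0.416 CPM. The 4 stromal markers (Col1a1, Col1a2, Dcn and Pdgfra) had no row in the count table, so no sum could be given for them.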

Additional observations from a re-analysis of the deposited data

Results flagged for a closer look

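In 39 groups of 4 libraries (members, ratios of members), 3 held a library whose gap to its nearest neighbour was above Dixon's critical value at the 95% level. Chance gives about 1 such group in 20. Skil in naïve replicate 4 was at 427 CPM, against 90.0 CPM in the nearest naïve library. Ski in the same library was at 355 CPM, against 149 CPM in the nearest. Smad2 in lactate replicate 2 was at 54.8 CPM, below the other 3 lactate libraries, of which the nearest was at 61.2 CPM.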

How the results depend on the processing

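Under 25 alternative settings no call of a member changed direction. The count of members called in lactate against media, 2, was 4 with these 2 groups fitted alone, with the replicate block by donor and at an adjusted p of 0.05, and 1 with the replicate block by title number, in which Smad4 was lost (adjusted p 0.0178). Leaving out 1 library gave 1 to 4, with 4 without naïve replicate 4 and 2 without naïve replicate 2. The donor block changed no call of a member other than Tgfb1 and Tgfbr1. Of all tested genes 3451 were called in lactate against media, 5461 at an adjusted p of 0.05 and 2260 (without media replicate 2) to 4830 (without naïve replicate 4) with 1 library left out. The count over all tested genes was also above 3451 with lactate and media fitted alone and with the donor block. It was below 3451 with the block by title number, so the background moved in the same direction as the members. The uncalled difference of Tgfb1 in media against naïve, 0.07, turned to -0.0035, -0.053 and -0.068 without naïve replicates 1, 2 and 3, and to -0.014 without media replicate 1, and was 0.28 without naïve replicate 4. In the high run alone, with 1 naïve, 1 media and 2 lactate libraries, log2 differences of the ratio of Tgfbr2 to Tgfbr1 were -0.67 in lactate against media and, with naïve cells as the reference, 0.24 in media (-0.41 over both runs) and -0.43 in lactate, and that of Smad7 to Smad3 was -1.25 (media against naïve). The cause was not tested. DESeq2 gave no adjusted p for Skil, with log2 fold changes of -0.35 in lactate against media and, from naïve cells, -1.68 in media and -2.02 in lactate. Over 3 other scalings the median log2 fold change of all genes was -0.091 to -0.020. Depth limits the members little, with at least 228 counts each.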
